A study of Mus musculus with 2 samples.

Results

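The genes described here encode the machinery that moves new proteins into the endoplasmic reticulum (ER), glycosylates them and folds them. They were a named list of 40 symbols, and all 40 were among the 32531 gene symbols in the deposited counts. The list was proposed with the ratios between the libraries already known, so those ratios describe the genes and support nothing further. Dorsal striatum was taken from mice that had self-administered cocaine intravenously in long-access sessions. There was 1 input library from the group labelled escalating and 1 from the group labelled nonescalating. Both groups carried the Drd1-TRAP transgene of line CP73, a bacterial artificial chromosome in which Drd1 regulatory sequence drives an EGFP-tagged Rpl10a ribosomal protein, and came from an FVB/N-Swiss Webster strain bred onto C57BL/6 over 9 or more generations. Both had taken cocaine, and a drug-naive group was not analysed here. Input means total RNA of the whole dissected tissue, before any ribosome purification, so neurons and glia can both contribute to the values. Microglia and astrocyte markers were much lower in the escalating library, as described further on. How many animals stand behind each library, and their age and sex, were not given in the sources used here.

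Proteins bound for the cell surface, the lysosome or secretion enter the ER through the Sec61 channel, usually while the ribosome is still making them. Signal peptidase removes the targeting sequence, oligosaccharyltransferase attaches a preformed sugar tree to asparagine residues, and chaperones and disulfide isomerases fold the product. Chains that fail to fold are sent back to the cytosol and degraded. When unfolded proteins build up, the sensors Ire1, PERK and ATF6 start the unfolded protein response, and ATF6 and XBP1 raise transcription of many of these genes through a promoter motif known as the ER stress element (ERSE). Neurons rely on this pathway for receptors, channels and neuropeptides, and glia for transporters and myelin proteins.

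Exact ERSE motifs were searched in the promoters because they are the regulatory sequence the folding genes are best known for. The window ran from 250 bases before to 50 bases after each gene's start (RefSeq, GRCm38.p6). It held an entry for 34 of the 40 genes; Sec61a1, Ssr2, Spcs3, Sec11c, Hyou1 and Ero1l had none in the table. The ERSE searched was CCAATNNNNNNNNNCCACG on either strand, where N is any base. It was found in 7 of the 34 promoters (20.6%) and in 37 of all 27025 genes with a promoter in the table (0.137%). The shorter ERSE-II, ATTGGNCCACG, in which the CCAAT box is inverted, was found in 1 of 34 (2.94%) and in 12 of all genes (0.0444%), and the XBP1-bound core TGACGTGG in 0 of 34 and in 193 of all genes (0.714%). No ERSE-II overlapped an ERSE. Each element is shown with up to 30 bases on either side, in the direction in which the motif reads, and capitals mark the motif.
Hspa5 (chr2:34771995-34772073, plus strand): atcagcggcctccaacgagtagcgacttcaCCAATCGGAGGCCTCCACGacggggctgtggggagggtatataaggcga
Hsp90b1, far element (chr10:86705608-86705686, minus strand): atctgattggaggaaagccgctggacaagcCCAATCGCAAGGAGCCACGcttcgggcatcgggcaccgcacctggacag
Hsp90b1, near element (chr10:86705503-86705581, plus strand): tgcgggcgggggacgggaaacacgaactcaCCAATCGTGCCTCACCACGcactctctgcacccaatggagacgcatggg
Dnajc3 (chr14:118937797-118937875, plus strand): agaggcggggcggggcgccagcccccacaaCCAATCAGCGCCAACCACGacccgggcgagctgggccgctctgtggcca
Canx (chr11:50325770-50325848, minus strand): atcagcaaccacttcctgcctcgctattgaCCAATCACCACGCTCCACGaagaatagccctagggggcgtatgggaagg
Calr (chr8:84847045-84847123, plus strand): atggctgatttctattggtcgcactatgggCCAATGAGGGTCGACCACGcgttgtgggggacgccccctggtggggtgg
Pdia6 (chr12:17266461-17266539, plus strand): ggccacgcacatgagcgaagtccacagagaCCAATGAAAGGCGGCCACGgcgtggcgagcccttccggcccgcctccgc
Syvn1 (chr19:6046502-6046580, plus strand): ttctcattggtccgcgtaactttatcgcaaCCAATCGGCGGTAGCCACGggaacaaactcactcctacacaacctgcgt
Dnajb11, ERSE-II (chr16:22857822-22857892, plus strand): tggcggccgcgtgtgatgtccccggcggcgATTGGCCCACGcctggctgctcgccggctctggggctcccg
Counted from the RefSeq start on which each window is built, the ERSE of Syvn1 ended 25 bases before the gene's start and that of Hspa5 46 bases before it. Those of Pdia6, Dnajc3, Canx and Calr ended 79, 86, 126 and 143 bases before it. Hsp90b1 held 2, which ended 193 and 88 bases before it, and the ERSE-II of Dnajb11 lay just downstream of its start. The gene bounds given further on are those of GENCODE M21, whose starts differ from the RefSeq starts for Calr, Hspa5, Hsp90b1, Dnajc3 and Pdia6; in GENCODE the Hspa5 element lies inside the gene's bounds. A match describes these letters and is not a measured binding site.

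Gene-assigned reads numbered 9548358 for escalating and 9376097 for nonescalating tissue. Levels are in CPM, a gene's count as a share of its library's size, with sizes scaled by TMM, a method that assumes most genes are alike. Ratios are log2 of escalating over nonescalating, with a 95% exact counting interval. A gene was called when it had at least 50 counts over both libraries, differed by at least 1.5-fold, and its interval excluded a ratio of 1. With 1 library per group there is no replicate check, so no test was possible and no p-value is given; the intervals cover counting error only, and the values set 1 library beside another, not the conditions. In bulk tissue, fewer cells of a type and less RNA per cell cannot be told apart.

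The ER machinery was lower in the escalating library as a broad group. Of the 38 members that reached 50 counts, 22 were called lower and 0 higher, while 17.1% of all 12213 measured genes were called lower and 9.36% higher. The measured members had a median log2 ratio of -0.68, and the median of all measured genes was 0.02. A ratio below 0 was found for 36 of the 38, against 48.5% of all genes. At least 2-fold lower were 7 members, namely Dnajc3, Stt3b, Canx, Hsp90b1, Hspa5, Dnajb9 and Spcs3, and 0 were 2-fold higher; over all genes 8.88% were 2-fold lower and 2.04% 2-fold higher. Read counts summed over the 40 genes came to 20406 in the escalating library, which is 0.214% of its assigned reads (0.211 to 0.217), and 26585 in the nonescalating library, which is 0.284% (0.280 to 0.287).

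The size of the difference depends on the scaling. With scaling by total assigned reads instead, the median of all genes moved up by 0.36 log2, 9.4% of all genes were called lower and 31.5% higher, and 8 members were called lower and 0 higher. Those 8 were Spcs3, Stt3b, Canx, Hspa5, Hsp90b1, Dnajb9, Dnajc3 and Pdia3. A change of scaling shifts every ratio alike, so the difference of -0.70 between the members' median and that of all genes is the same under any scaling by construction.

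**Figure D1:**
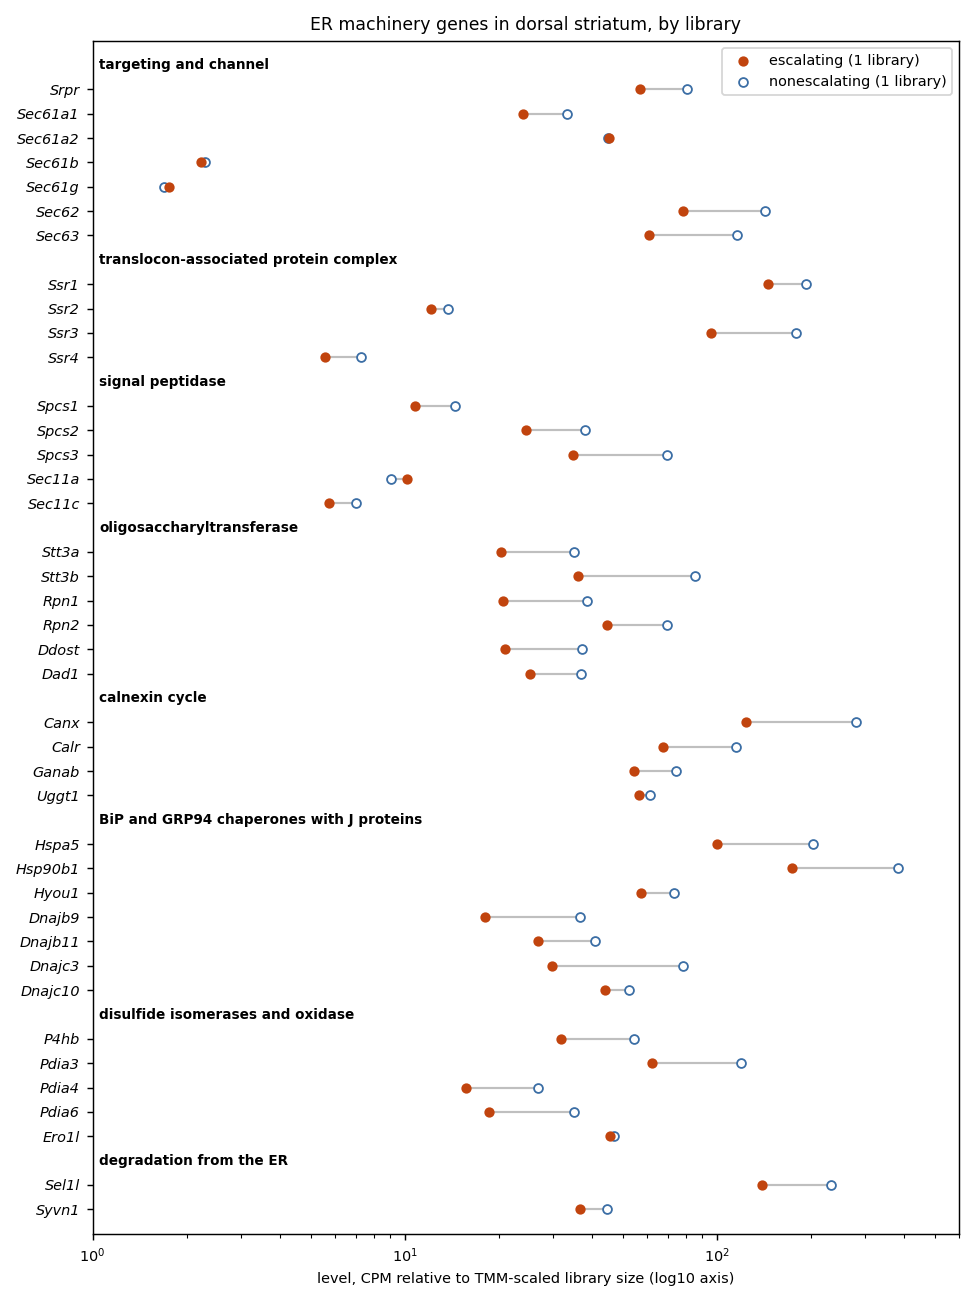
Level of each of the 40 genes in the escalating library (filled) and the nonescalating library (open), in CPM on a log10 axis, grouped by role, with 1 library per group. The escalating point lies left of the nonescalating point for most genes, as for Hsp90b1 at 175 CPM (escalating) and 382 CPM (nonescalating), and the points nearly coincide for Sec61a2 and Ero1l; with scaling to total reads 7 measured members change the side on which they lie.

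Among the genes for targeting and the channel, those for the accessory subunits Sec62 and Sec63 were lower and those for the pore itself were not called. Sec62, which helps short and post-translationally delivered proteins enter (chromosome 3, 30792875 to 30821263), had 78.2 CPM in escalating tissue and 143 CPM in nonescalating tissue and was 1.83-fold lower (1.67 to 2.002). Sec63, which brings the chaperone BiP to the channel (chromosome 10, 42761496 to 42832514), had 60.7 CPM in escalating and 117 in nonescalating tissue and was 1.92-fold lower (1.74 to 2.12). Both intervals exclude a ratio of 1, and neither gene was called with total-read scaling. The pore-forming alpha subunits are encoded by a pair of paralogs. Sec61a1 had 24.03 CPM in escalating tissue and 33.2 CPM in nonescalating tissue, a log2 ratio of -0.47 (-0.72 to -0.22), and Sec61a2 had 45.3 CPM in escalating and 45.0 in nonescalating tissue, a log2 ratio of 0.01 (-0.19 to 0.21). Sec61a1 made up 34.7% of the pair's reads in escalating tissue (31.3 to 38.2) and 42.5% in nonescalating tissue (38.7 to 46.4), and those intervals do not overlap. Per kilobase of annotated exon, Sec61a1 stood at 0.360 times the level of Sec61a2 in the escalating library and at 0.502 times in the nonescalating library. Nudt5 overlaps 19.9% of the exon bases of Sec61a2 on the opposite strand, and the sources used here do not say whether counting used strand. Reads in several genes were left out, at 8.06% of listed reads in escalating tissue and 18.9% in nonescalating tissue. Their part in the shares of this pair was not tested.

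Little can be said of the small channel subunits. Sec61b had 24 counts in escalating tissue and 19 in nonescalating tissue, and Sec61g had 19 in escalating and 14 in nonescalating tissue, so both fell under the count minimum. A 1.5-fold difference was not detectable at this depth, with log2 intervals of -0.98 to 0.90 for Sec61b and -1.02 to 1.16 for Sec61g. Of all 50-base stretches in their longest transcripts, 15.3% for Sec61b and 20.5% for Sec61g also occur in transcripts of other genes. Srpr, the alpha subunit of the receptor that docks ribosomes at the ER, had 57.0 CPM in escalating and 80.3 in nonescalating tissue, a log2 ratio of -0.49 (-0.65 to -0.33), and was not called; 20.0% of its 50-base stretches occur in other genes.

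The translocon-associated protein complex sits beside the channel and assists the entry of some proteins. Its gamma subunit gene Ssr3 (chromosome 3, 65379655 to 65392623) had 95.8 CPM in escalating tissue and 179 CPM in nonescalating tissue and was 1.87-fold lower (1.73 to 2.03). Ssr1, the alpha subunit gene, had 146 CPM in escalating and 194 in nonescalating tissue, a log2 ratio of -0.41 (-0.51 to -0.30). Ssr2, for the beta subunit, had 12.1 CPM in escalating and 13.8 in nonescalating tissue, a log2 ratio of -0.19 (-0.56 to 0.19). Ssr4, for the delta subunit, had 5.54 CPM in escalating and 7.25 in nonescalating tissue, a log2 ratio of -0.38 (-0.93 to 0.15). Only Ssr3 of these 4 was called, and with total-read scaling none was.

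In signal peptidase, the accessory subunit genes Spcs3 and Spcs2 were called lower, while Spcs1 and the genes for the catalytic subunits were not called. Spcs3 (chromosome 8, 54520433 to 54529998) had 34.6 CPM in escalating tissue and 69.3 CPM in nonescalating tissue and was 2.004-fold lower (1.76 to 2.29). Spcs2 had 24.5 CPM in escalating and 37.95 in nonescalating tissue and was 1.55-fold lower (1.31 to 1.83), close to the threshold. Spcs1 was at 10.8 CPM in escalating and 14.5 in nonescalating tissue, a log2 ratio of -0.42 (-0.80 to -0.04). Sec11a and Sec11c encode alternative catalytic subunits. Sec11a had 10.2 CPM in escalating tissue and 9.06 CPM in nonescalating tissue, a log2 ratio of 0.16 (-0.27 to 0.61), and Sec11c had 5.73 CPM in escalating and 7.01 in nonescalating tissue, a ratio of -0.29 (-0.83 to 0.25). Sec11a made up 64.0% of the reads of this pair in escalating tissue (56.3 to 71.1) and 56.4% in nonescalating tissue (47.5 to 65.0), and these intervals overlap. The log2 interval of Sec11c, from 62 counts in escalating and 58 in nonescalating tissue, also overlaps that of Spcs2 (-0.87 to -0.39).

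Oligosaccharyltransferase had 5 of its 6 genes called lower, against 17.1% of all genes, with a median log2 ratio of -0.80. With total-read scaling 1 of them (Stt3b) was called lower, against 9.4% of all genes. The catalytic subunit comes in alternative forms, STT3A at the channel and STT3B, which also acts after a protein has left it. Stt3b (chromosome 9, 115242581 to 115310421) had 390 counts, or 36.0 CPM, in escalating tissue and 707 counts, or 85.5 CPM, in nonescalating tissue and was 2.37-fold lower (2.09 to 2.69). Stt3a had 20.3 CPM in escalating and 34.9 in nonescalating tissue and was 1.72-fold lower (1.44 to 2.06). The intervals of these folds do not overlap. Stt3a made up 36.1% of the reads of the pair in escalating tissue (32.2 to 40.02) and 29.0% in nonescalating tissue (26.2 to 31.9).

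The noncatalytic subunits ranged more narrowly. Rpn1 and Ddost, whose products help bind and position the substrate, were both lower. Rpn1 had 20.6 CPM in escalating and 38.4 in nonescalating tissue and was 1.87-fold lower (1.57 to 2.22), and Ddost had 20.98 CPM in escalating and 37.1 in nonescalating tissue and was 1.77-fold lower (1.49 to 2.11). Rpn2 had 44.6 CPM in escalating and 69.5 in nonescalating tissue and was 1.56-fold lower (1.38 to 1.76). Dad1, the sixth subunit gene, had 25.2 CPM in escalating and 36.7 in nonescalating tissue, a log2 ratio of -0.54 (-0.78 to -0.30), just short of the threshold.

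Among the roles, the lumenal chaperones had the lowest median log2 ratio. Of single genes, Dnajc3 of this role differed most, followed by Stt3b and Canx of other roles. Of 7 genes for BiP, GRP94 and their partners 5 were called lower, against 17.1% of all genes, and the median log2 ratio was -1.01. With total-read scaling 4 of them were called lower, against 9.4% of all genes. Hspa5, which encodes the Hsp70 chaperone BiP (chromosome 2, 34771970 to 34777547), had 1088 counts, or 100.5 CPM, in escalating tissue and 1684 counts, or 204 CPM, in nonescalating tissue and was 2.02-fold lower (1.87 to 2.19). Hsp90b1, which encodes the Hsp90 chaperone GRP94 (chromosome 10, 86690209 to 86705509), had 1890 counts (175 CPM) in escalating tissue and 3163 counts (382 CPM) in nonescalating tissue and was 2.19-fold lower (2.07 to 2.32). Per kilobase of annotated exon it had the highest level of the 40 genes in both libraries, at 43.3 CPM in escalating tissue and 94.8 CPM in nonescalating tissue. An annotated pseudogene and other transcripts overlap 15.7% of its exon bases. Hyou1, the gene of a large Hsp70 relative that exchanges nucleotide on BiP, differed less, with 57.2 CPM in escalating and 72.8 in nonescalating tissue and a log2 ratio of -0.35 (-0.51 to -0.18).

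J proteins hand clients to BiP and stimulate its ATPase, and their genes were spread widely. Dnajc3, which encodes the cochaperone P58IPK (chromosome 14, 118937976 to 118981697), had 320 counts, or 29.6 CPM, in escalating tissue and 648 counts, or 78.3 CPM, in nonescalating tissue. It was 2.65-fold lower (2.31 to 3.04), the largest difference among the 40. Dnajb9, for ERdj4, had 18.1 CPM in escalating and 36.5 in nonescalating tissue and was 2.02-fold lower (1.68 to 2.42), and Dnajb11, for ERdj3, had 26.7 CPM in escalating and 40.9 in nonescalating tissue and was 1.53-fold lower (1.30 to 1.80). At the other end, Dnajc10, for the disulfide reductase ERdj5, had 43.8 CPM in escalating and 52.3 in nonescalating tissue and a log2 ratio of -0.26 (-0.45 to -0.07).

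The calnexin cycle retains glycoproteins until they are folded, and its lectins were lower while its enzymes were not called. Canx, the gene of the membrane-bound lectin calnexin (chromosome 11, 50293961 to 50325673), had 1348 counts, or 125 CPM, in escalating tissue and 2319 counts, or 280.3 CPM, in nonescalating tissue and was 2.25-fold lower (2.10 to 2.41). Calr, for its soluble relative calreticulin, had 67.2 CPM in escalating and 115 in nonescalating tissue and was 1.72-fold lower (1.56 to 1.89). Ganab, the catalytic subunit gene of glucosidase II that trims glucose from the sugar, had 54.2 CPM in escalating and 74.2 in nonescalating tissue, a log2 ratio of -0.45 (-0.62 to -0.29). Uggt1, the sensor that adds glucose back to unfolded glycoproteins, had 56.4 CPM in escalating and 61.3 in nonescalating tissue, a log2 ratio of -0.12 (-0.29 to 0.05). The last 2 intervals lie above those of Canx and Calr. With total-read scaling Canx was called lower and Calr was not called.

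Disulfide isomerases form and rearrange disulfide bonds, and their 4 genes in the list were called lower within a narrow range, against 17.1% of all genes. Pdia3, whose product ERp57 works with calnexin (chromosome 2, 121413775 to 121438687), had 62.0 CPM in escalating tissue and 120.0 CPM in nonescalating tissue and was 1.94-fold lower (1.75 to 2.14). Pdia6 had 18.7 CPM in escalating and 34.8 in nonescalating tissue and was 1.86-fold lower (1.55 to 2.24), P4hb, for the archetypal isomerase PDI, had 31.7 CPM in escalating and 54.5 in nonescalating tissue and was 1.72-fold lower (1.49 to 1.98), and Pdia4 had 15.7 CPM in escalating and 26.7 in nonescalating tissue and was 1.70-fold lower (1.39 to 2.09). Ero1l, the oxidase that recharges PDI, stood apart from its partners at 45.5 CPM in escalating and 46.8 in nonescalating tissue, with a log2 ratio of -0.04 (-0.24 to 0.16). Its interval does not overlap those of the 4 isomerases. With total-read scaling Pdia3 alone of the 5 was called.

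Disposal of misfolded chains was represented by the ubiquitin ligase gene Syvn1 (HRD1) and its partner Sel1l. Sel1l (chromosome 12, 91806043 to 91849157) had 1517 counts, or 140.2 CPM, in escalating tissue and 1919 counts, or 232 CPM, in nonescalating tissue and was 1.65-fold lower (1.55 to 1.77). Syvn1 had 36.6 CPM in escalating and 44.6 in nonescalating tissue, a log2 ratio of -0.28 (-0.49 to -0.08), and was not called. With total-read scaling neither Sel1l nor Syvn1 was called.

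**Figure D2:**
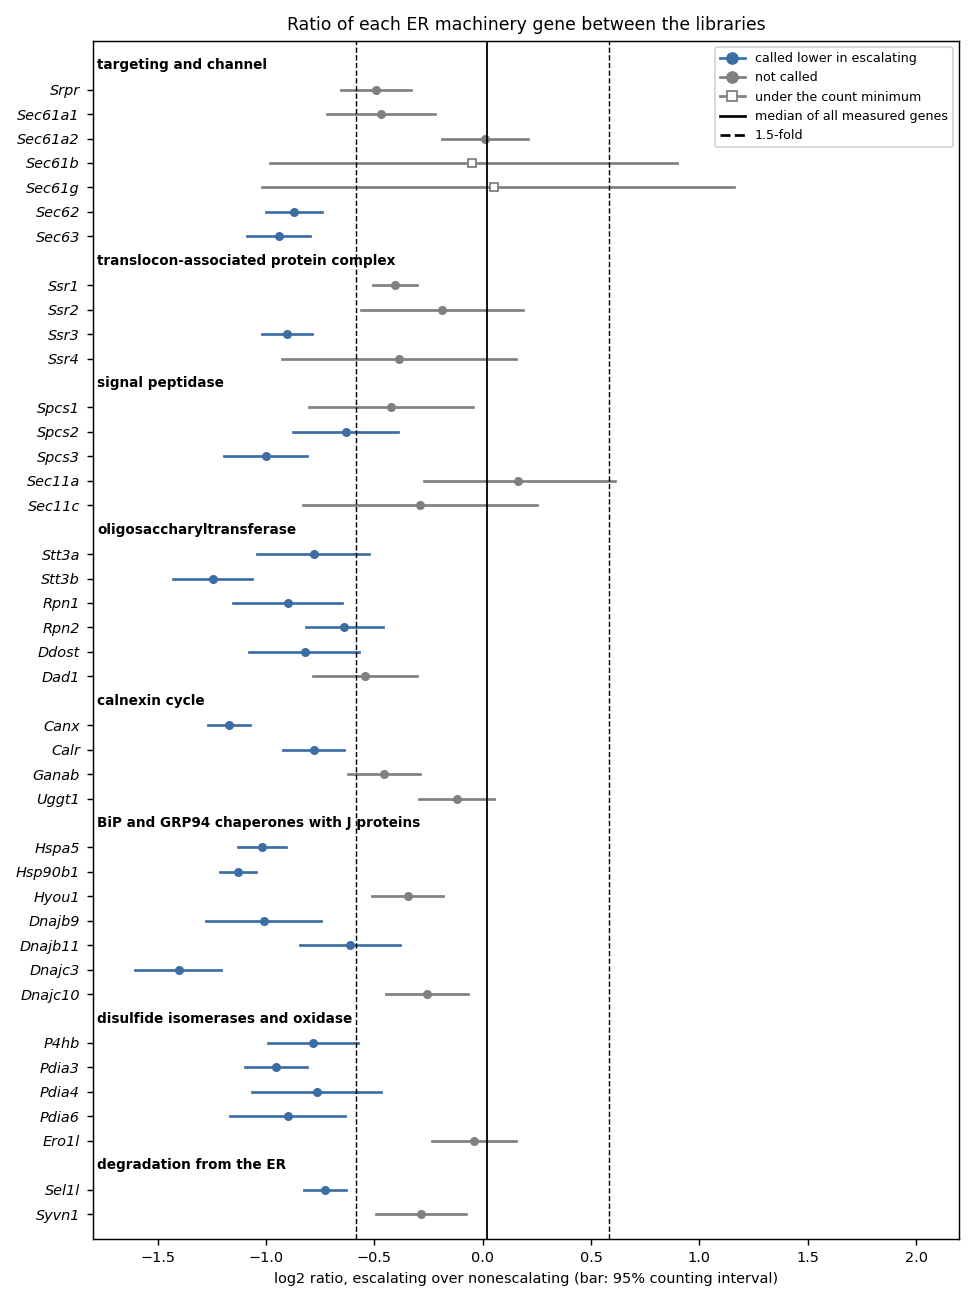
Log2 ratio of escalating over nonescalating for each of the 40 genes with its 95% counting interval, by role; the solid line is the median of all measured genes and the dashed lines mark 1.5-fold. The 22 genes called lower lie from -1.40 for Dnajc3 to -0.61 for Dnajb11, and Sec61b and Sec61g (open squares) are under the count minimum; with total-read scaling all points sit 0.36 further right and 8 remain called.

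The members that held a stress element were mostly among those called lower. Of the 8 with an ERSE or ERSE-II, 7 were called lower, Syvn1 being the exception, against 17.1% of all genes, and their median log2 ratio was -0.96. With total-read scaling 4 of the 8 were called lower, namely Canx, Hspa5, Hsp90b1 and Dnajc3, with a median of -0.60. Of 24 measured members with a promoter entry and no exact match, 14 were called lower, with a median of -0.68, or 3 with total-read scaling (median -0.32). The 8 with an element also had higher levels, with a median of 51.9 CPM in escalating and 96.8 CPM in nonescalating tissue. For the 24 without, the medians were 39.9 CPM in escalating and 53.4 CPM in nonescalating tissue. The part of level in the difference between these sets was not tested. Outside the list, 6 other measured genes held an ERSE: Creld2 was lower, and Adcy3, Alg12, Hnrnpa3, Pan2 and Spats2l were not called (median -0.20). Of 7 other genes with an ERSE-II, Herpud1, Lrif1 and Nucb1 were lower and Krtcap2, Lgalsl, Rbm39 and Rcl1 were not called. With total-read scaling only Creld2 of these genes outside the list was called lower. Alg12, Spats2l, Krtcap2 and Rbm39 were then called higher, where 9.4% of all genes were called lower and 31.5% higher. These medians and counts describe sets of very few genes.

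Level and read number went along with the ratio to some degree. Among the 38 measured members the log2 ratio had a Spearman correlation of -0.39 with the mean CPM of both libraries, against -0.02 over all measured genes; these points share libraries and depth, and genes are not independent replicates. Among the 16 members with at least 1000 counts 11 were called lower, among the 14 with at least 500 but fewer than 1000 counts 8 were, and among the 8 with fewer than 500 that passed the minimum 3 were. Over all genes the share called lower ran the other way, at 13.7%, 14.8% and, for 100 counts to fewer than 500, 17.5%. The correlation with merged exon length was 0.23 among the members and -0.07 over all genes, and with GC content 0.31 and 0.07.

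**Figure D3:**
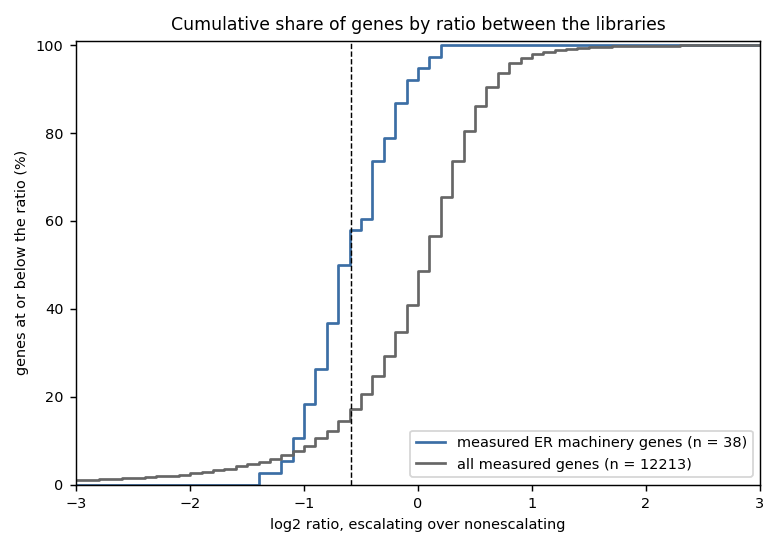
Share of genes (in %) at or below each log2 ratio of escalating over nonescalating, for the 38 measured ER machinery genes and for all 12213 measured genes; the dashed line marks 1.5-fold lower. The curve of the ER machinery lies to the left over most of the range, with medians of -0.68 and 0.02, while the far left tail, below Dnajc3 at -1.40, holds other genes only.

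Lists of neighbouring steps were counted in the same way, and differences between lists were not tested. Over all genes 17.1% were called lower and 9.36% higher, or 9.4% and 31.5% with total-read scaling. In the signal recognition particle, which carries ribosomes to the ER, 0 of 7 measured genes were lower and 1 was higher, Srp54b at 1.71-fold (1.23 to 2.39), with a median of 0.24, and with total-read scaling 0 were lower and 4 higher (median 0.60); Srp54b has near-identical copies, so its count is uncertain. Of 23 other translocon and membrane insertion factors 9 were lower and 2, Emc9 and Get4, higher (median -0.40); with total-read scaling 1 was lower, Emc3, and 3 higher (median -0.04). Emc3, a core subunit of the ER membrane complex, had 31.8 CPM in escalating and 67.3 in nonescalating tissue and was 2.12-fold lower (1.85 to 2.43), Hspa13 was 1.90-fold (1.58 to 2.27), Tram1 1.89-fold (1.48 to 2.42) and Mmgt1 1.78-fold lower (1.45 to 2.199).

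Glycosylation genes outside the list were counted by step. Of 5 other oligosaccharyltransferase subunits 3 were lower and 0 higher (median -0.61), or 2 lower and 1 higher with total-read scaling (median -0.25). Magt1, an oxidoreductase subunit found with STT3B, had 128 counts in escalating tissue and 355 in nonescalating tissue and was 3.63-fold lower (2.96 to 4.48), Ostc was 2.03-fold (1.49 to 2.77) and Tusc3, the paralog of Magt1, 1.53-fold lower (1.31 to 1.79). Of 23 genes that assemble the sugar donor 5 were lower (21.7%, near the 17.1% of all genes) and 1 higher (median -0.19), or 2 lower and 6 higher with total-read scaling (median 0.17). Alg14 had 17 counts in escalating and 60 in nonescalating tissue and was 4.62-fold lower (2.66 to 8.44), while Dpm1 was 1.56-fold higher (1.09 to 2.26); the others called lower were Mpdu1, Alg8, Alg5 and Dpagt1. Of 13 genes for glycan trimming and lectin transport 6 were lower and 0 higher (median -0.53), or 3 and 0 with total-read scaling (median -0.17), among them Edem1, which marks glycoproteins for disposal, at 2.79-fold (2.30 to 3.38) and the mannosidase gene Man1a at 2.70-fold (2.37 to 3.09).

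The regulators of the unfolded protein response had calls in both directions. Among 14 measured sensors and factors 5 were lower (35.7%) and 1 higher (median -0.39), where 17.1% of all genes were lower and 9.36% higher. With total-read scaling 2 were lower and 4 higher (median -0.03), where 9.4% of all genes were lower and 31.5% higher. Xbp1, whose product is a main activator of these genes, had 403 counts, or 37.2 CPM, in escalating tissue and 482 counts, or 58.3 CPM, in nonescalating tissue and was 1.56-fold lower (1.37 to 1.79), and Ern1, which encodes the sensor Ire1, had 30 counts in escalating and 55 in nonescalating tissue and was 2.40-fold lower (1.51 to 3.88). Ddit3, which encodes the stress-induced factor CHOP, had 114 counts in escalating and 44 in nonescalating tissue and was 1.98-fold higher (1.39 to 2.87). Nfe2l2 was 2.63-fold lower (2.14 to 3.25), and Creb3l2 1.61-fold (1.21 to 2.15). The remaining gene called lower was the protease gene Mbtps2. Further genes were picked after their values were seen. Atf6 had a log2 ratio of -0.24 (-0.34 to -0.15), Eif2ak3, for PERK, -0.52 (-0.96 to -0.10) and Atf4 0.28 (0.06 to 0.50). None of them was called with TMM. With total-read scaling Atf4 was called higher, at a log2 ratio of 0.64. Ern1 and Nfe2l2 were still called lower with that scaling, while Xbp1, Creb3l2 and Mbtps2 were not called.

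Targets of the response were counted by branch. Of 18 further ATF6 and XBP1 target genes 10 were lower (55.6%, against 17.1% of all genes) and 0 higher (median -0.61). With total-read scaling 6 were lower and 2 higher (median -0.25). Vimp had 10.4 CPM in escalating and 25.3 in nonescalating tissue and was 2.42-fold lower (1.92 to 3.07), Tmed2 was 2.42-fold (1.80 to 3.26), and Creld2, with 30 counts in escalating and 48 in nonescalating tissue, 2.09-fold lower (1.30 to 3.42); Edem1 is on this list as well. Of 13 measured PERK and ATF4 target genes 4 were lower (30.8%) and 0 higher (median -0.10). With total-read scaling 3 were lower and 2 higher (median 0.26), beside 9.4% and 31.5% of all genes. Those 4 were the amino acid transporter genes Slc7a11 at 4.96-fold (4.08 to 6.07) and Slc3a2 at 2.26-fold (1.97 to 2.58), and the serine synthesis genes Phgdh at 2.27-fold (1.84 to 2.82) and Psat1 at 1.59-fold (1.48 to 1.72).

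Folding enzymes beyond the list were counted likewise. Of 19 other disulfide and peptidyl-prolyl isomerases 10 were lower and 1 higher (median -0.59), or 3 lower and 3 higher with total-read scaling (median -0.23). Fkbp9 had 12.3 CPM in escalating and 28.8 in nonescalating tissue and was 2.34-fold lower (1.89 to 2.92), Txndc12 was 2.0-fold (1.55 to 2.59) and Erp44, which retains Ero1 in the ER, 1.93-fold lower (1.52 to 2.45), while the oxidase gene Qsox1 was 1.86-fold higher (1.35 to 2.60). The other degradation factors were called lower about as often as all genes (17.1%), at 4 of 24 (16.7%), with 0 higher (median -0.30), or 2 lower and 2 higher with total-read scaling (median 0.06). Among those called lower were Derl1 at 1.98-fold (1.60 to 2.46), Rnf139 at 1.94-fold (1.48 to 2.56) and Herpud1 at 1.51-fold (1.15 to 1.99).

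Export from the ER and cytosolic folding were counted in the same way. Of 18 COPII coat and export genes 2 were lower (11.1%, near the 17.1% of all genes) and 1 higher (median 0.07). With total-read scaling 0 were lower and 5 higher (median 0.43), where 9.4% of all genes were called lower and 31.5% higher. Mia3, which loads large cargo such as collagen, was 1.61-fold lower (1.47 to 1.76) and Sar1b 1.503-fold lower (1.32 to 1.71), and Sec22b was 1.58-fold higher (1.39 to 1.81). Of 25 cytosolic chaperone genes 0 were lower and 4 higher (median 0.18), beside 17.1% and 9.36% of all genes. With total-read scaling 0 were lower and 9 higher (median 0.55). Those 4 were Bag2 at 6.31-fold with 66 counts in escalating and 8 in nonescalating tissue (3.02 to 15.2), Dnajb1 at 1.68-fold (1.36 to 2.08), Dnajb4 at 1.59-fold (1.42 to 1.78) and Hspa2 at 1.54-fold (1.32 to 1.81). Hspa8, the main cytosolic Hsp70 gene and the counterpart of Hspa5, had 762 CPM in escalating tissue and 706 CPM in nonescalating tissue, a log2 ratio of 0.11 (0.06 to 0.16); it was picked after its values were seen.

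**Figure D4:**
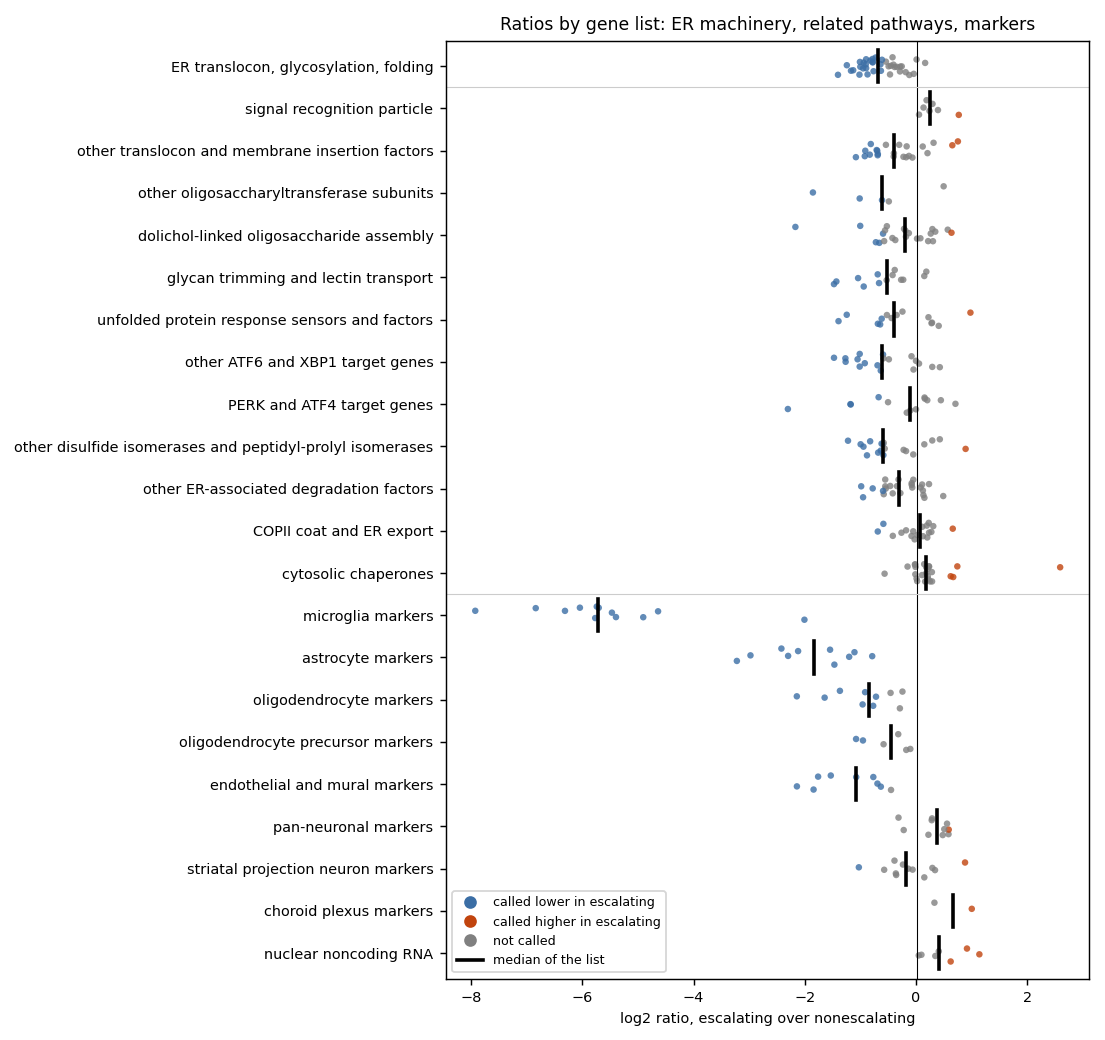
Log2 ratio of escalating over nonescalating for every measured gene (points) of the ER machinery, of related pathway lists and of marker lists, with each list's median as a bar and the median of all measured genes as a thin line. The ER machinery has a median of -0.68, the signal recognition particle, COPII and cytosolic chaperone lists have medians of 0.24, 0.07 and 0.18, and the microglia and astrocyte marker lists reach furthest left; with total-read scaling all points move right by 0.36, which turns the medians of the sugar donor, degradation factor, PERK target and projection neuron lists positive.

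Marker lists for cell types also differed between the libraries, and not all in the same direction. All 12 microglia markers were lower, with a summed level of 34.9 CPM in escalating tissue and 1552 CPM in nonescalating tissue, and Trem2 was at 0 counts in the escalating library. The summed level of 10 astrocyte markers was 2272 CPM in escalating tissue and 15812 CPM in nonescalating tissue, with all 10 lower. Oligodendrocyte markers summed to 1531 CPM in escalating and 3938 in nonescalating tissue (7 of 10 lower), precursor markers to 99.3 CPM in escalating and 152 in nonescalating tissue (2 of 6 lower), and endothelial and mural markers to 88.3 CPM in escalating and 185 in nonescalating tissue (8 of 9 lower). By total reads 12 microglia, 9 astrocyte, 4 oligodendrocyte, 2 precursor and 5 endothelial and mural markers were lower. Over all genes 17.1% were called lower and 9.36% higher with TMM, and 9.4% lower by total reads. Pan-neuronal markers summed to 7209.6 CPM in escalating tissue and 5956 CPM in nonescalating tissue, with 1 of 10 higher and 0 lower (by total reads, 7 higher and 0 lower). Projection neuron markers summed to 7559.5 CPM in escalating and 6761 in nonescalating tissue, with 1 of 12 higher and 1 lower (by total reads, 3 higher and 1 lower). Although that sum was higher in escalating tissue, 8 of the 12 projection neuron markers had a log2 ratio below 0, with a median of -0.19. By total reads 31.5% of all genes were called higher. Markers of the labelled tissue were thus present in both libraries. Choroid plexus markers summed to 28.2 CPM in escalating and 16.3 in nonescalating tissue, with the defining markers Ttr and Folr1 at 0 counts in the escalating library and at 0 and 1 in the nonescalating library. Nuclear noncoding RNAs summed to 23155 CPM in escalating and 11387 in nonescalating tissue (3 of 7 higher, Malat1 at 2.204-fold; by total reads, 5 of 7 higher). Reads in no annotated gene made up 28.6% of listed reads in escalating tissue and 18.1% in nonescalating tissue. Reads in several genes made up 8.06% in escalating and 18.9% in nonescalating tissue. The part of cell composition, nuclear RNA and read assignment in the lower level of the ER machinery was not tested. Across the 40 genes the summed level was 1886 CPM in escalating tissue and 3213 CPM in nonescalating tissue, 1.70-fold lower, while the microglia sum was 44.4-fold and the astrocyte sum 6.96-fold lower. Slc1a2, the astrocyte glutamate transporter gene, made up most of the astrocyte sum, with 1421 CPM in escalating and 13256 CPM in nonescalating tissue, and the median log2 ratio of that list was -1.83.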

How the data were processed

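Total RNA of whole dorsal striatum was sequenced in 2 libraries, 1 per group. The authors deposited raw read counts per gene symbol; alignment to mm10 with STAR 2.0.0e and counting with HTSeq are named in the submitters' processing notes, while the HTSeq version, strand setting and annotation were not given in the sources used here. Reads in no gene (28.6% of listed reads for escalating, 18.1% for nonescalating tissue), in several genes (8.06% for escalating, 18.9% for nonescalating) or not placed uniquely (9.53% for escalating, 7.78% for nonescalating) were left out. From the deposited counts, CPM were computed with TMM factors (edgeR 4.0.16 in R 4.3.3; 1.13 for escalating, 0.882 for nonescalating), and log2 ratios with a pseudocount of 0.5. Intervals are 95% Clopper-Pearson intervals of the split of a gene's counts; reads without molecular identifiers are not independent molecules. Alternatives were DESeq2 1.42.0 size factors, total reads, upper-quartile factors, other count minimums, pseudocounts and folds. The calculation was run on simulated counts with counting noise only, which says nothing about variation between animals or libraries. Exon lengths and coordinates are those of GENCODE M21 on the same build, and promoters those of RefSeq GRCm38.p6. The members and all gene lists were chosen with earlier results of these data known. All members are named; from each pathway list, up to 4 with the largest absolute log2 ratio, and any called where 5 or fewer were, except 1 gene that is not reported here. Other genes are said to be picked after their values were seen, except those named because their promoter holds an element. Tools were Python 3.11.15, pandas 2.3.3 and scipy 1.17.1.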

Additional observations from a re-analysis of the deposited data

How the results depend on the processing

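With total-read scaling 3853 of all measured genes were called higher and 1148 lower, against 1143 and 2085 with TMM, so higher genes made up 77.0% of calls against 35.4%; 8 members were called lower, with a median log2 ratio of -0.32. At a minimum of 200 counts 578 genes were higher and 1253 lower. At 2-fold 249 were higher and 1085 lower, and 7 members were lower; at a looser fold threshold of 0.32 on the log2 scale 2467 genes were higher and 3055 lower. The number of members called lower was 22 with DESeq2 size factors, with minimums of 10 and 200 counts, with none and with a pseudocount of 5; it was 19 with upper-quartile factors and 29 at that looser threshold. The number called higher was 0 under each of these alternatives. No paired analysis was possible because each group has 1 library, and for the same reason no replicate could be left out. Depth limits Sec61b and Sec61g most.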
